A study of Mus musculus with 18 samples.

Results

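The genes described here are the aminoacyl-tRNA synthetases, taken from the arrays by symbol: a probe counted when its annotated gene was named for a synthetase of a single amino acid (such as Aars or Vars2), for the glutamate-proline synthetase Eprs or for a phenylalanine synthetase subunit (Farsa, Farsb). The annotation held 77 such probes for 35 genes. A probe was kept when its detection p, the chance that background alone gave its brightness, was under 0.05 on 3 or more arrays, which left 56 probes and 30 genes of the 10529 genes measured. Of the 30, 18 encode enzymes that work in the cytosol (2 of them, Gars and Kars, also supply mitochondria) and 12 encode mitochondrial enzymes. The genes Aars2, Cars, Hars2, Nars2 and Yars2 had annotated probes but none that was kept, so their levels were not measured here.

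The series holds 18 Illumina arrays of RNA from bone marrow-derived mast cells, grown from C57BL/6J mice aged 4 to 6 weeks. The mice were wild type (WT) or ST2 knockout (ST2KO), where ST2 is the subunit through which IL-33 is sensed. Cells of both genotypes received IgE activation for 4 h, IL-33 for 4 h, or no stimulus. Each of the 6 groups had 3 arrays, numbered 1 to 3. The labels do not name the antigen or antibody used with IgE, the IL-33 dose, or whether arrays of a group came from separate mice, so p-values measure the spread between these arrays, which may be technical. In RNA from a whole culture, fewer cells of a type and less RNA per cell cannot be told apart.

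A synthetase joins an amino acid to its tRNA, which then carries it to the ribosome. Cytosolic and mitochondrial translation use mostly separate enzymes, which carry the suffix 2 when mitochondrial, and several cytosolic enzymes sit together in the multisynthetase complex with the scaffold proteins Aimp1, Aimp2 and Eef1e1. In mammalian cells the transcription factor ATF4, which is translated when amino acids run short or when growth signalling is strong, is known to drive many cytosolic synthetase genes together with genes for amino acid synthesis and uptake. Mast cells answer IgE and IL-33 within hours by making and secreting cytokines.

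The cells were checked against marker genes. All 10 mast cell markers were measured, and their summed level lay between 17.1 and 17.5 on every array. Of these, 1 rose and 2 fell with IgE in WT cells, beside 5.33% of all genes called higher and 6.53% called lower. Hdc, which makes histamine, rose by 2.77 ± 0.36 (limma adjusted p 0.00026), Ms4a2, a subunit of the IgE receptor, fell by 0.88 (SE 0.23, adjusted p 0.0211) and the transcription factor gene Gata2 fell by 0.44 (SE 0.13, adjusted p 0.0432). None of the 6 B and T cell markers was kept, 1 of 8 neutrophil markers and 2 of 5 erythroid markers were, and 3 of 4 basophil markers were. The summed level of these 3 basophil markers ran from 12.59 to 12.94 on the unstimulated WT arrays and from 12.49 to 13.03 with IgE. It lay above the sum of the macrophage and dendritic cell markers in both groups. Of 11 symbols for macrophage and dendritic cell markers 5 were kept. Their summed level ran from 8.17 to 10.5 on the unstimulated WT arrays and from 7.81 to 10.3 with IgE, so the groups overlapped, although one marker, the fungal receptor gene Clec7a, rose with IgE (0.55 ± 0.16, limma adjusted p 0.0360). In ST2KO cells the sum ran from 8.01 to 9.01 unstimulated and from 7.91 to 8.31 with IgE, and Clec7a rose by 1.08 ± 0.16 (adjusted p 0.000693). The part of other cells in the synthetase results was not tested. No probe carried the name of Il1rl1, the gene of ST2, so the knockout itself was not examined here. One array (ST2KO with IgE, number 3) was deposited with intensities for 10012 of 45281 probes, and its levels were placed by the rank of the authors' own values.

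Arrays numbered 3 stood apart in all groups, and the synthetases show it. The level of 16 of the 30 genes was lower on array 3 than on the mean of arrays 1 and 2 in every one of the 6 groups, and none was higher in every group. Among all genes measured, 1988 of 10529 were lower in every group and 1689 higher. For the synthetases the median difference was -0.30 on the log2 scale, against -0.04 for all genes. Arrays 1 and 2 differed from each other by a median of 0.15, regardless of sign. Farsb (-0.91), Mars1 (-0.89), Wars (-0.85) and the mitochondrial Mars2 (-0.95) lay lowest, while Fars2 (0.38) and Wars2 (0.18) lay higher. Because the array numbers recur in every group, the comparisons were also fitted with the number as a block within each genotype, which removes this shared difference, and without the 6 arrays numbered 3. What array 3 stands for is not in the labels, and its cause was not tested.

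**Figure D1:**
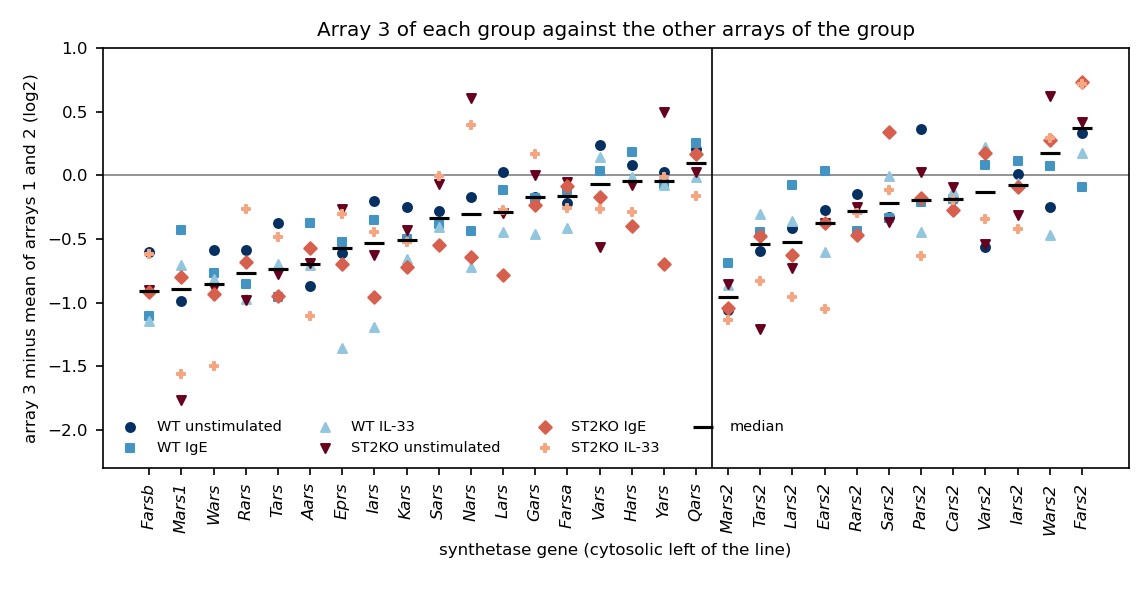
Level of each synthetase gene on array 3 minus the mean of arrays 1 and 2 of the same group (log2, vertical axis), with 1 point per group and a bar at the median over the 6 groups. Cytosolic genes stand left of the line, and 16 of the 30 genes lie below 0 in every group.

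IgE activation of WT cells raised 2 cytosolic synthetases and 1 mitochondrial one and lowered 2 mitochondrial ones. Alanyl-tRNA synthetase (Aars) rose 2.20-fold, the glycyl enzyme Gars 1.72-fold and the mitochondrial glutamyl enzyme Ears2 2.26-fold. The mitochondrial cysteinyl enzyme Cars2 fell to 0.676 of its unstimulated level and the mitochondrial valyl enzyme Vars2 to 0.649. These 3 rises and 2 falls among 30 synthetases passed a limma adjusted p of 0.05 over all genes, beside 5.33% of all genes called higher and 6.53% called lower. With the replicate block, 13 synthetases rose and 2 fell, beside 14.6% and 17.9% of all genes. Without the arrays numbered 3 the counts were again 13 and 2, beside 16.5% and 20.7%. Scaling the arrays by their medians in place of quantiles changed the split of all genes called from 561 higher and 688 lower to 314 and 777, and left 1 synthetase, Gars, called.

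By compartment, of the 18 cytosolic genes 16 had a positive change with IgE, and their median was 0.68 on the log2 scale, against 0.02 for the 12 mitochondrial genes, of which 6 were positive, and -0.03 for all genes. The difference between compartments was not tested. In the blocked fit 12 cytosolic genes rose and none fell, and among the mitochondrial genes Ears2 rose and Cars2 and Vars2 fell. All levels given here are log2 values of background-corrected, quantile-normalised probe brightness, and all changes are differences of their group means with the standard error (SE, 3 arrays per group).

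**Figure D2:**
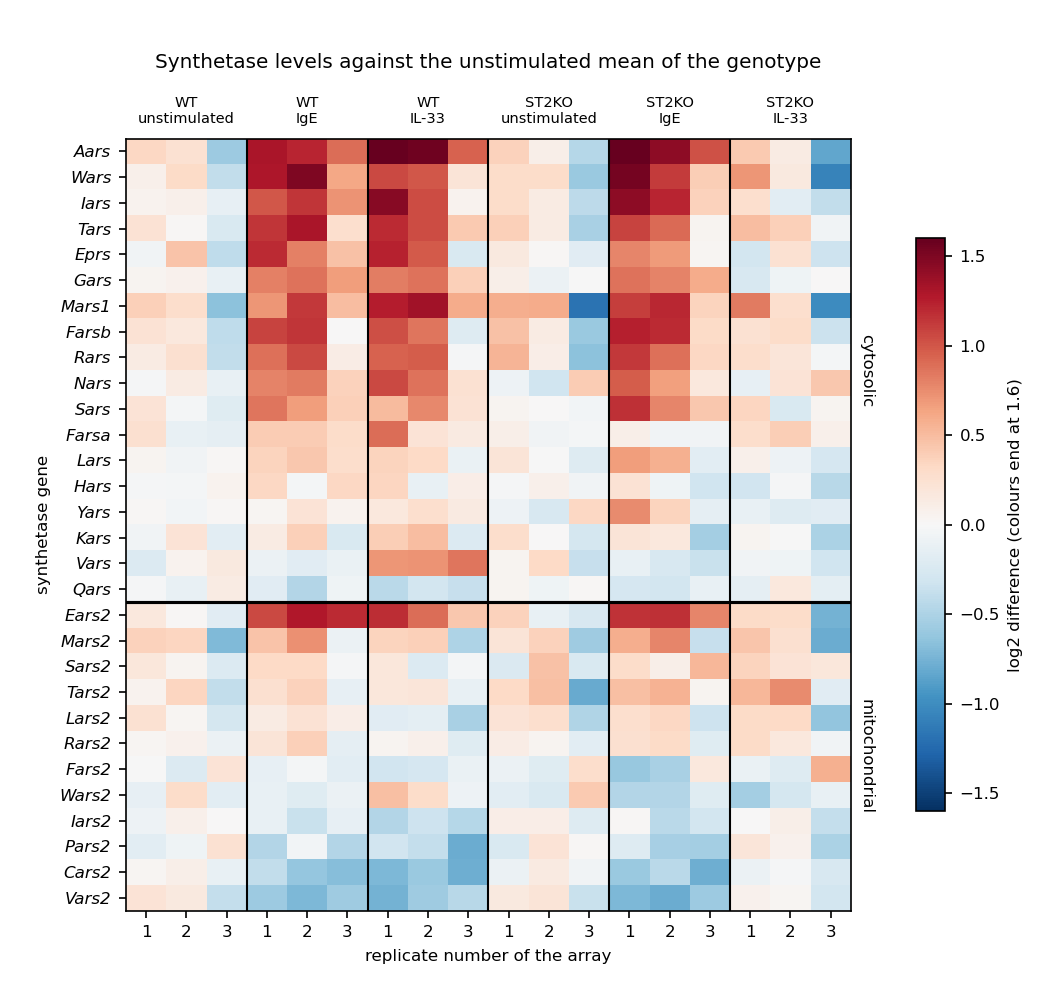
Level of each of the 30 synthetase genes on each of the 18 arrays as a log2 difference from the unstimulated mean of the same genotype (red higher, blue lower). Most cytosolic rows are red with IgE in both genotypes and with IL-33 in WT cells, with array 3 often paler. With IL-33 in ST2KO cells no gene was called, and some rows, such as Aars, Mars1 and Wars, are blue on array 3.

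Aars, which charges alanine, stood at 10.06, 9.97 and 9.15 on unstimulated WT arrays 1 to 3. It stood at 11.04, 10.95 and 10.62 with IgE and at 11.46, 11.28 and 10.67 with IL-33. Both stimulated groups lay wholly above the unstimulated one, and array 3 was the lowest of each. The rise was 1.14 ± 0.34 with IgE (limma adjusted p 0.0391, 4.99e-06 with the block) and 1.41 ± 0.34 with IL-33 (adjusted p 0.0124). Without the 6 arrays numbered 3 the IgE rise was 0.98 ± 0.13. The IgE call was lost when any of 5 of its 6 arrays was left out, with adjusted p between 0.0531 and 0.156, and held without WT IgE array 3. In ST2KO cells Aars stood at 9.97, 9.70 and 9.15 unstimulated, 11.34, 11.04 and 10.62 with IgE, and 10.03, 9.74 and 8.78 with IL-33. Only the IgE group lay above the unstimulated one, by 1.39 ± 0.34 (limma adjusted p 0.0143). The IL-33 call in WT cells was lost without unstimulated array 3 or IL-33 array 1 or 2 (adjusted p up to 0.0703), and the IgE call in ST2KO cells without unstimulated array 3 or IgE array 1 or 2 (up to 0.0709).

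Gars, which charges glycine in both compartments, rose with a small spread between arrays. On WT arrays it read 11.25, 11.27 and 11.09 unstimulated, 12.01, 12.08 and 11.87 with IgE, and 12.02, 12.07 and 11.59 with IL-33. The ranges of stimulated and unstimulated cells did not meet. Its rise of 0.78 ± 0.13 with IgE (limma adjusted p 0.00133) and of 0.69 ± 0.13 with IL-33 (adjusted p 0.00316) passed without each array in turn. ST2KO cells read 11.54, 11.35 and 11.44 unstimulated, 12.31, 12.24 and 12.04 with IgE, and 11.19, 11.38 and 11.45 with IL-33. There the rise with IgE was 0.76 ± 0.13 (limma adjusted p 0.00181), and the IL-33 and unstimulated ranges overlapped.

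Ears2 charges glutamate in mitochondria and was the sole mitochondrial member called higher. Its levels in WT cells were 6.47, 6.32 and 6.12 unstimulated, 7.36, 7.58 and 7.50 with IgE, and 7.48, 7.20 and 6.73 with IL-33. Every stimulated array was above every unstimulated one. The IgE rise was 1.18 ± 0.28 (limma adjusted p 0.0126) and the IL-33 difference 0.83 ± 0.28 (adjusted p 0.0667, 0.00373 with the block). In ST2KO cells the levels were 6.98, 6.49 and 6.36 unstimulated, 7.76, 7.77 and 7.39 with IgE, and 6.91, 6.90 and 5.85 with IL-33, with a rise of 1.04 ± 0.28 for IgE (limma adjusted p 0.0247). A second Ears2 probe, detected on 3 of 17 complete arrays, differed by 0.03 with IgE in WT cells and by -0.06 with IL-33, and by -0.03 with IgE in ST2KO cells, so the calls rest on 1 probe. The WT call was lost without IgE array 2 (adjusted p 0.0562), and the ST2KO call held without 2 of its 6 arrays and reached 0.0934 without another.

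Sars, which charges serine, was called in ST2KO cells with IgE. It read 8.26, 8.22 and 8.17 there unstimulated, 9.39, 9.0 and 8.65 with IgE and 8.56, 7.97 and 8.26 with IL-33. The IgE arrays were all above the others, by 0.80 ± 0.21 against unstimulated cells (limma adjusted p 0.0230). The call was lost without any of its arrays but IgE array 3, with adjusted p up to 0.119. In WT cells it read 8.40, 8.14 and 7.99 unstimulated, 9.04, 8.85 and 8.56 with IgE and 8.68, 8.94 and 8.41 with IL-33. Both stimulated WT groups lay above the unstimulated one and overlapped each other, and the IgE difference was 0.64 ± 0.21 (adjusted p 0.0630, 0.00403 with the block). The IgE change differed between the genotypes by 0.16 ± 0.30, with an interval from -0.47 to 0.79, so the call in ST2KO cells alone is not shown to be a difference between them.

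Cars2 and Vars2 went the other way. Cars2 stood at 7.42, 7.48 and 7.26 on unstimulated WT arrays, at 7.0, 6.77 and 6.70 with IgE and at 6.67, 6.80 and 6.61 with IL-33. It fell by 0.57 with IgE (SE 0.15, limma adjusted p 0.0272) and by 0.70 with IL-33 (SE 0.15, adjusted p 0.00798), every stimulated array being below every unstimulated one. In ST2KO cells it stood at 7.37, 7.61 and 7.40 unstimulated, 6.87, 7.03 and 6.68 with IgE and 7.37, 7.45 and 7.21 with IL-33, and fell by 0.61 with IgE (SE 0.15, limma adjusted p 0.0191). A second Cars2 probe moved the same way by less, by -0.19 with IgE and -0.42 with IL-33 in WT cells. The IL-33 call held without each array in turn, and the IgE calls held without 2 of 6 arrays in WT and 3 of 6 in ST2KO cells (adjusted p up to 0.102 and 0.0840). Without the incomplete array the ST2KO call for Cars2 was lost (-0.51, adjusted p 0.0520), and those for Aars, Gars, Ears2, Sars and Vars2 held.

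Vars2, measured by 1 probe, stood at 8.31, 8.24 and 7.71 in unstimulated WT cells, 7.50, 7.37 and 7.52 with IgE and 7.33, 7.51 and 7.64 with IL-33. Every stimulated array was below every unstimulated one, but unstimulated array 3 differed from arrays 1 and 2 by -0.57 and lay near the stimulated arrays. The fall was 0.62 with IgE (SE 0.19, limma adjusted p 0.0489) and the IL-33 difference was -0.59 ± 0.19 (adjusted p 0.0629). Without the arrays numbered 3 they were -0.84 ± 0.16 (adjusted p 0.00013) and -0.85 ± 0.16 (adjusted p 9.99e-05). ST2KO cells read 8.08, 8.13 and 7.57 unstimulated, 7.20, 7.13 and 7.34 with IgE and 8.0, 7.95 and 7.63 with IL-33, a fall of 0.70 with IgE (SE 0.19, limma adjusted p 0.0286). With IgE in WT cells the Vars2 call was lost without any array but unstimulated array 3 (adjusted p up to 0.176), and in ST2KO cells it held without 2 of 6 (up to 0.114).

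**Figure D3:**
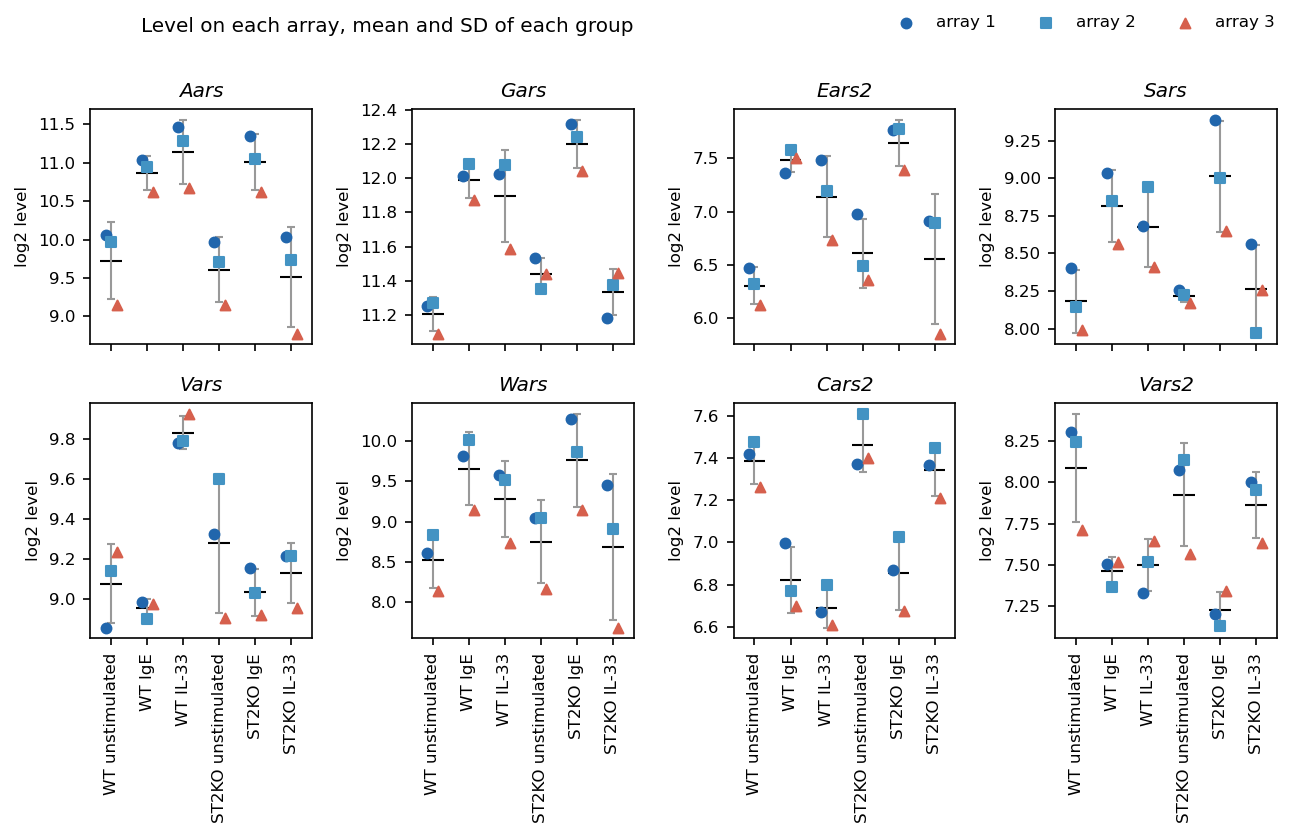
Log2 level of 8 synthetase genes on each array, by group, with the group mean (bar) and SD (whiskers, 3 arrays) and a symbol for each array number. The 3 WT IL-33 arrays are the highest for Vars, and array 3 (triangles) is the lowest array of each group for Aars and Wars.

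With IL-33 in WT cells Aars rose 2.66-fold, Gars 1.61-fold and the cytosolic valyl enzyme Vars 1.69-fold, and Cars2 fell to 0.617 of its unstimulated level. These were 3 rises and 1 fall among 30 synthetases, beside 5.09% of all genes called higher and 6.74% lower. The comparison shares its unstimulated arrays with that for IgE. The block made this 14 rises and 4 falls, beside 13.5% and 18% of all genes, and leaving out the arrays numbered 3 made it 15 and 3, beside 16.5% and 22.2%. With median scaling all genes split into 277 higher and 1200 lower, against 536 and 710, the median of all genes moved to -0.16, and Cars2 was the 1 synthetase called. The 4 falls with the block were Cars2, Vars2, the mitochondrial isoleucyl enzyme Iars2 (-0.42 ± 0.15) and the glutaminyl enzyme Qars (-0.36 ± 0.12). Of the cytosolic genes 17 of 18 had a positive change, with a median of 0.64, against 4 of 12 and -0.12 for the mitochondrial genes and -0.02 for all genes.

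IL-33 and IgE were compared directly, and the synthetase called between them was Vars, which charges valine. Its WT levels were 8.85, 9.14 and 9.23 unstimulated, 8.98, 8.90 and 8.97 with IgE, and 9.78, 9.79 and 9.93 with IL-33. The IL-33 arrays stood above all others, and the IgE arrays lay within the unstimulated range. The IL-33 rise was 0.76 ± 0.16 (limma adjusted p 0.00613), the IgE difference was -0.12 ± 0.16 (adjusted p 0.687), and IL-33 exceeded IgE by 0.88 ± 0.16 (adjusted p 0.00428). It was the 1 synthetase called between the stimuli, beside 2.16% of all genes called higher with IL-33 and 2.27% lower (227 and 239 genes, or 141 and 231 with median scaling). Both Vars calls held without each array in turn and were lost with median scaling (adjusted p 0.123 and 0.0926). Of its other probes, a second bright one changed by 0.64 with IL-33 and -0.30 with IgE, and a dim one by 0.29 and -0.04. Without the arrays numbered 3, Aars (0.38 ± 0.13) and the dim Wars2 (0.55 ± 0.18) were also higher with IL-33 than with IgE, 3 members beside 9.59% of all genes. Wars2 passed the detection filter only through its WT IL-33 arrays, so its call is not independent of the filter. With the block 1 synthetase was higher and 1 lower with IL-33 than with IgE, beside 798 and 869 of all 10529 genes. The lower one was the mitochondrial leucyl enzyme Lars2 (difference -0.44 ± 0.14, limma adjusted p 0.0462). ST2KO cells read 9.33, 9.60 and 8.90 for Vars unstimulated, 9.15, 9.03 and 8.92 with IgE and 9.22, 9.21 and 8.95 with IL-33, with overlapping ranges.

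**Figure D4:**
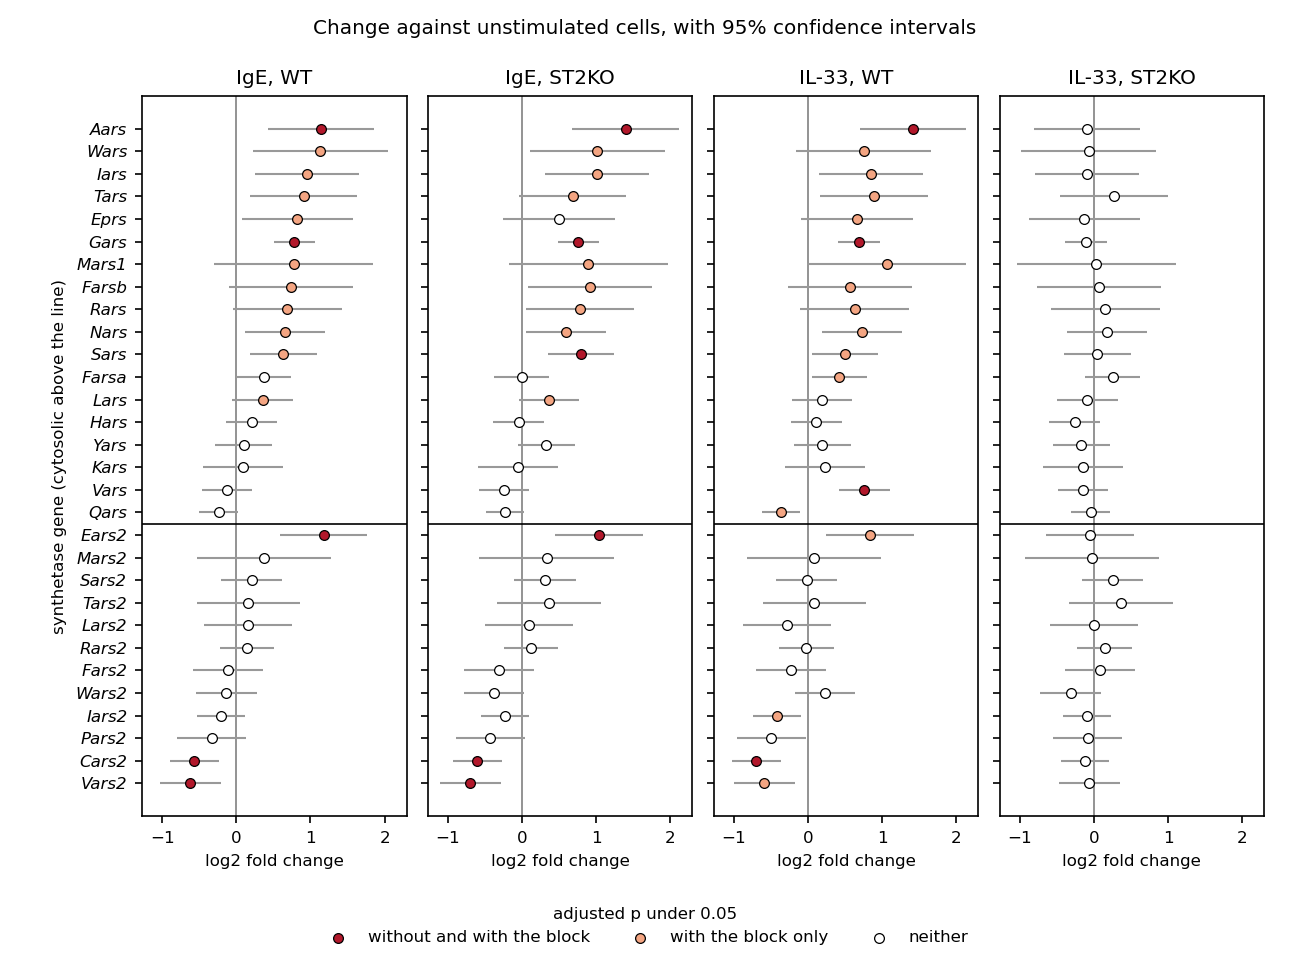
Log2 fold change against unstimulated cells of the same genotype, with 95% confidence intervals from the fit without a block, for all 30 synthetases under each stimulus and genotype. Dark points were called without and with the replicate block, pale points with the block alone. In ST2KO cells with IL-33 no gene was called.

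A further 10 cytosolic members missed the threshold with IgE in WT cells without the block, and were called both with it and without the arrays numbered 3. The tryptophanyl enzyme Wars, known to be secreted and interferon-inducible, differed by 1.13 ± 0.43 with IgE in WT cells (limma adjusted p 0.101, 2.45e-05 with the block). Its arrays read 8.61, 8.83 and 8.13 unstimulated and 9.81, 10.02 and 9.14 with IgE, so the groups did not overlap, and the same-numbered differences were 1.20, 1.19 and 1.01. All 4 Wars probes moved the same way, by 1.13 to 1.54. The other such genes with IgE were the isoleucyl enzyme Iars (0.95), the threonyl enzyme Tars (0.91), Eprs (0.82), the methionyl enzyme Mars1 (0.77), the phenylalanyl subunit Farsb (0.74), the arginyl enzyme Rars (0.69), the asparaginyl enzyme Nars (0.66), Sars (0.64) and the leucyl enzyme Lars (0.35). With IL-33 in WT cells the same measure gave 1.06 for Mars1, 0.89 for Tars, 0.85 for Iars, 0.75 for Wars, 0.72 for Nars, 0.66 for Eprs, 0.63 for Rars, 0.56 for Farsb and 0.50 for Sars. These 9 and the phenylalanyl subunit Farsa (0.42) were called with the block, together with Ears2. When the arrays numbered 3 were dropped these 9 and Ears2 were called, Farsa was not (adjusted p 0.0673), and Lars and Kars were also called higher.

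The 7 members of the multisynthetase complex measured here were Eprs, Iars, Kars, Lars, Mars1, Qars and Rars. With IgE in WT cells none was called by limma, and 2 had an unadjusted p under 0.05, beside 2746 of all 10529 genes. With the block 5 rose. The changes ran from -0.24 (Qars) to 0.95 (Iars), with a median of 0.69. The 11 cytosolic enzymes outside the complex had a median of 0.66, with 2 called and 7 with the block, beside 5.33% of all genes called higher and 14.6% with the block. Kars, the lysyl enzyme, differed by 0.09 ± 0.25 with IgE and by 0.23 ± 0.25 with IL-33. Qars differed by -0.24 ± 0.12 and -0.36 ± 0.12, and all 3 of its kept probes were negative in both. The kept probes of Kars had opposite signs with IL-33 (-0.21 and 0.23). The 16 enzymes of structural class I had a median of 0.15 with IgE and the 13 of class II a median of 0.37, and each class held both positive and negative members. Eprs joins an enzyme of each class and was counted in neither.

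Of the scaffold genes, Eef1e1 differed by 1.52 ± 0.53 with IgE in WT cells (limma adjusted p 0.0766, 0.000391 with the block) and by 1.15 ± 0.53 with IL-33. Aimp2 differed by 0.52 ± 0.30 and 0.60 ± 0.30, and Aimp1 by -0.21 ± 0.18 and -0.28 ± 0.18. None of the 3 was called by limma with either stimulus. With the block Eef1e1 and Aimp2 rose with IgE and with IL-33, and Aimp1 fell with IL-33 (adjusted p 0.0434). At an unadjusted p under 0.05, 1 of the 3 passed in each comparison, beside 2746 of all 10529 genes with IgE and 2722 with IL-33.

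The remaining members were not called without the block. With it the IL-33 rise of Farsa was called, and Lars2 was lower with IL-33 than with IgE. When the arrays numbered 3 were dropped, Wars2 was higher with IL-33 than with IgE, and with IgE in ST2KO cells Fars2, the mitochondrial phenylalanyl enzyme, differed by -0.42 ± 0.12 (limma adjusted p 0.00755) and Yars by 0.72 ± 0.18 (adjusted p 0.00201). The probes of Farsa, Hars, Sars2, Wars2 and Yars were detected on 11, 7, 14, 4 and 3 of the 17 complete arrays, so Yars stood just inside the rule. Nars2, detected on 2, stood just outside. The other 25 genes were detected on all 17. Yars had 2 of its 3 detections on ST2KO IgE arrays, the group where it was called higher. Wars2 had 2 of its 4 on WT IL-33 arrays and 0 with IgE in WT cells. Each passed the filter only through the group where it was higher, so these calls are not independent of the filter. Among the mitochondrial genes, Fars2, Lars2, Mars2, Rars2, Sars2, Tars2 and Wars2 had changes between -0.14 and 0.37 with IgE in WT cells and passed there neither without nor with the block. A second, dimmer Mars2 probe, detected on 15 of 17 complete arrays, changed by 0.78 with IgE in WT cells and by 0.84 in ST2KO cells. Pars2, the prolyl enzyme, differed by -0.33 ± 0.22 with IgE and by -0.49 ± 0.22 with IL-33 (limma adjusted p 0.166), its IL-33 arrays (5.57, 5.50 and 5.09) lying below the unstimulated ones (5.71, 5.81 and 6.12). Hars, the histidyl enzyme, and Yars, the tyrosyl enzyme, differed by 0.21 ± 0.16 and 0.10 ± 0.18 with IgE and were not called. Signs of kept probes also differed for Rars2 with IL-33 and for Ears2, Hars, Kars and Rars2 with IgE in ST2KO cells.

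Interval widths limit what can be read for the members that were not called. Over the synthetases the median distance from a change to the end of its 95% interval was 0.47 on the log2 scale, and 0.32 with the block.

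In ST2KO cells IgE raised Aars 2.63-fold, Gars 1.69-fold, Ears2 2.05-fold and Sars 1.74-fold and lowered Cars2 to 0.657 and Vars2 to 0.616 of the unstimulated level. These were 4 rises and 2 falls among 30 synthetases, beside 5.48% of all genes called higher and 7.11% lower. With the block the counts were 12 and 2, beside 15.1% and 18.7%, and without the arrays numbered 3 they were 14 and 4, beside 16.1% and 20.8%. The 14 include Yars, which passed the detection filter only through this group. The median was 0.64 for cytosolic and -0.07 for mitochondrial genes. The IgE changes in the 2 genotypes, which come from separate arrays, had the same sign in 27 of 30 synthetases and in 81.7% of all genes. Across the 30 genes their Pearson correlation was 0.96, a description over genes that share arrays, and it was 0.92 over all 10529 genes. The largest difference between genotypes was that of Farsa (-0.38 ± 0.25), and the median size was 0.12. No synthetase differed in its IgE change between genotypes at a limma adjusted p under 0.05, nor at an unadjusted p under 0.05, and 0% of all genes were called, with 133 at an unadjusted p under 0.05. The 95% interval of the difference was -0.42 to 0.37 for Gars and -0.76 to 1.27 for Aars, so differences within those limits were not excluded.

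**Figure D5:**
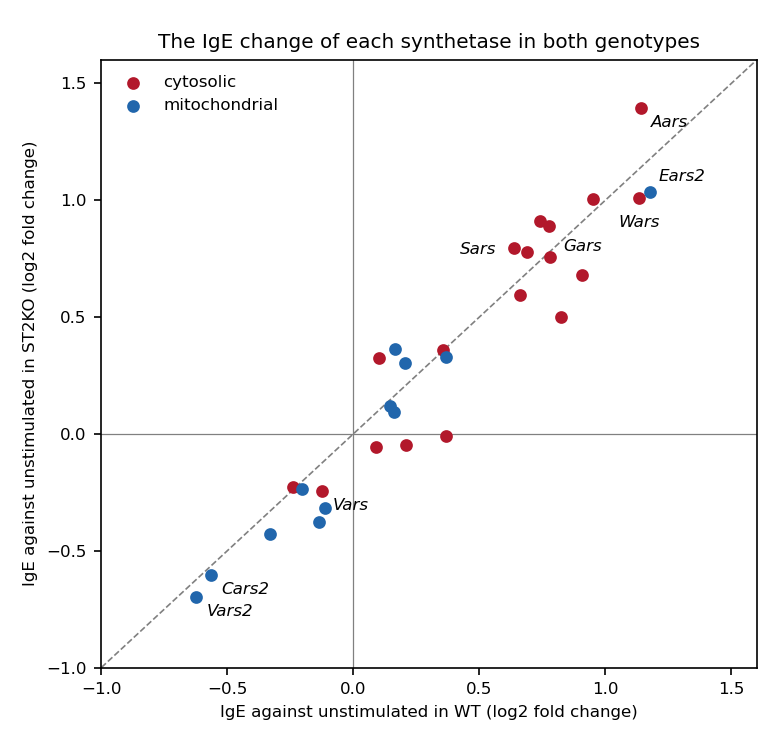
Log2 fold change with IgE in WT cells (horizontal) and in ST2KO cells (vertical) for the 30 synthetases, coloured by compartment, with the line of equal change dashed. The points follow the line, from Vars2 and Cars2 at the lower left to Aars, Ears2 and Wars at the upper right.

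IL-33 left the synthetases of ST2KO cells without a called change. No member was called, 0% of all genes were called, and no synthetase had an unadjusted p under 0.05 by limma, while 155 of all 10529 genes did. Changes ran from -0.31 (Wars2) to 0.37 (Tars2) with a median of -0.06, and the interval was -0.81 to 0.62 for Aars, -0.39 to 0.17 for Gars and -0.49 to 0.19 for Vars. The IL-33 response itself was smaller in ST2KO than in WT cells for Gars, by 0.80 (difference -0.80 ± 0.19, limma adjusted p 0.0368), and for Vars (-0.91 ± 0.23, adjusted p 0.0465). These were 0 of 30 synthetases with a higher and 2 with a lower response, beside 1.25% and 1.46% of all genes (132 and 154 genes, or 259 and 73 with median scaling, which moved the median of all genes to 0.20 and ended both calls). With the block 7 were lower (Aars, Ears2, Gars, Iars, Mars1, Vars and Wars), beside 8.94% of all genes higher and 6.63% lower. Without the arrays numbered 3, 13 were lower and Vars2 higher, beside 13.9% of all genes higher and 10.4% lower. Aars had the largest difference, -1.51 ± 0.48 (adjusted p 0.118, 5.74e-05 with the block). Of the cytosolic genes 17 of 18 had a negative difference, with a median of -0.53, and of the mitochondrial genes 9 of 12 had a positive one, with a median of 0.28. The calls for Gars and Vars were each lost without any of 10 of the 12 arrays compared, with adjusted p up to 0.109 and 0.127.

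No synthetase differed between unstimulated cells of the genotypes at the threshold. Differences, ST2KO minus WT, ran from -0.24 (Mars1) to 0.30 (Ears2), and 0.0095% of all genes were called, 1 gene. No synthetase had an unadjusted p under 0.05 by limma, against 339 of all genes. Gars read 11.35 to 11.54 in ST2KO and 11.09 to 11.27 in WT cells, groups that did not overlap, a difference of 0.24 ± 0.13 (unadjusted p 0.0911). Without the arrays numbered 3, Vars was higher in ST2KO cells by 0.47 ± 0.13 (limma adjusted p 0.0382), 1 of 30 beside 2.73% of all genes called higher.

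Promoters that hold an element known to be read by ATF4 are shown so that their letters can be set beside the changes of these genes. RefSeq promoters (GRCm38.p6, 250 bases before to 50 bases after the start) matched 23 of the 30 genes by symbol. They were searched on both strands for the C/EBP-ATF composite element, written TGATGNAA, which ATF4 is known to bind with C/EBP proteins, and for the E-box CACGTG, which Myc, USF and TFE factors are known to bind and which reads the same on both strands. The composite element stood in a promoter of 5 of 23 synthetase genes (21.7%), 5 of 12 cytosolic and 0 of 11 mitochondrial ones. It stood in a promoter of 4.51% of all 27025 genes and of 2.86% of the 8587 genes measured on the arrays. The E-box stood in 5 of 23 (Aars, Ears2, Farsb, Iars and Tars), against 8.09% and 11.8%. Both motifs are in capitals, each stretch is read 5′ to 3′ on the gene's strand, and no 2 matches overlap. Aars lies at chr8:111033676-111033871 on the plus strand, Gars at chr6:55037951-55037998 on the plus strand, Iars at chr13:49682041-49682159 on the plus strand, Tars at chr15:11399629-11399693 on the minus strand and Yars at chr4:129189886-129189932 on the plus strand.
Aars: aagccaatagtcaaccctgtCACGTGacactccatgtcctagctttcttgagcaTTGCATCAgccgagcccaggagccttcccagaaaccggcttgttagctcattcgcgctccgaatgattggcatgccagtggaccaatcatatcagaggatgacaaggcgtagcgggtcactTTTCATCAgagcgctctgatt
Gars: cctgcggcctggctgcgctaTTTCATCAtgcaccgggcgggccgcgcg
Iars: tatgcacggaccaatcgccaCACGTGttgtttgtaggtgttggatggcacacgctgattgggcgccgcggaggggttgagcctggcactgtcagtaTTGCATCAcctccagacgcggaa
Tars: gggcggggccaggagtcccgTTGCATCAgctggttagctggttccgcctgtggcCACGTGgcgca
Yars: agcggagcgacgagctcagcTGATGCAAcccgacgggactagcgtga

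Aars carries the element in 2 places, 112 bases before the start and 9 after it, and an E-box 146 bases before. In Gars it lies 30 bases before the start, in Tars 15 before, and in Iars 7 and in Yars 3 bases after it. With IgE in WT cells the changes of these genes were 1.14, 0.78, 0.91 and 0.95 for Aars, Gars, Tars and Iars, and 0.10 for Yars, whose probe was near background. The cytosolic promoters without the element were those of Sars, Farsb, Eprs and Mars1, which differed by 0.64 to 0.82, and Farsa, Kars and Qars, which differed by -0.24 to 0.37. No promoter was matched for the cytosolic Hars, Lars, Nars, Rars, Vars and Wars, which differed by -0.12 (Vars) to 1.13 (Wars). A match of letters is a description of the sequence and says nothing of binding in these cells.

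Genes of the ATF4 amino acid response were listed from general knowledge. Earlier results of these data were known at that point, so the list is not independent of them. Of 24 measured members 9 rose and 1 fell with IgE in WT cells, 6 rose and 1 fell with IL-33, and 12 rose and 1 fell with IgE in ST2KO cells. Of all genes 5.33% rose and 6.53% fell, 5.09% and 6.74%, and 5.48% and 7.11% in the same order. None of the 24 was called by limma with IL-33 in ST2KO cells, and 0 had an unadjusted p under 0.05. Atf4 itself rose by 0.98 ± 0.18 with IgE in WT cells (limma adjusted p 0.00323), by 0.93 ± 0.18 with IL-33 (adjusted p 0.0043) and by 0.86 ± 0.18 with IgE in ST2KO cells (adjusted p 0.00689). Asns, the asparagine synthetase, rose by 1.81 ± 0.35, 1.22 ± 0.35 and 1.95 ± 0.35 in that order (adjusted p 0.00374, 0.0330 and 0.0023).

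Among the other members, the serine synthesis genes Psat1 and Phgdh rose with IgE in WT cells by 1.72 ± 0.29 and 1.12 ± 0.21 (limma adjusted p 0.00133 and 0.00346), and with IL-33 they differed by 0.57 ± 0.29 and -0.02 ± 0.21, neither called. With IL-33 the cystine transporter gene Slc7a11 rose by 1.84 ± 0.21 (limma adjusted p 9.67e-05) and the neutral amino acid transporter gene Slc1a4 by 1.61 ± 0.31 (adjusted p 0.00368). Ddit4, an inhibitor of mTORC1 signalling, was the member that fell, by 1.44 with IgE and 1.48 with IL-33 in WT cells (SE 0.29 each, adjusted p 0.00545 and 0.00428). Myc differed by 0.28 ± 0.22 with IgE and 0.37 ± 0.22 with IL-33 and was not called.

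Other genes of the translation machinery were counted the same way, to be read against the same shares of all genes (5.33% and 6.53%, 5.09% and 6.74%, 5.48% and 7.11%), and no count is called particular to its list. Of 38 cytosolic translation factors 2 rose and 1 fell with IgE in WT cells, 4 rose with IL-33, and 3 rose and 2 fell with IgE in ST2KO cells. The initiation factor gene Eif1a rose by 0.84 ± 0.20 with IgE and by 0.89 ± 0.20 with IL-33 in WT cells (limma adjusted p 0.0140 and 0.00983). The subunit gene Eif2b1 of the initiation factor eIF2B rose by 0.66 ± 0.19 with IgE (adjusted p 0.0374). With IL-33 Eif6 rose by 0.93 ± 0.23 and Eif5a, the hypusine-carrying factor, by 1.16 ± 0.33 (adjusted p 0.0167 and 0.0336). Eef2k, a kinase that slows translation elongation, fell by 1.67 with IgE (SE 0.46, adjusted p 0.0265). Of 15 mitochondrial translation factors none was called in these comparisons by limma (with the block 2, 3 and 1 rose and 1 fell, with IL-33). In that order 1, 2 and 1 had an unadjusted p under 0.05, beside 2746, 2722 and 2821 of all 10529 genes. Of 49 genes of tRNA transcription and processing 2 rose and 1 fell with IgE in WT cells, 1 rose and 2 fell with IL-33, and 4 rose and 1 fell with IgE in ST2KO cells. Elac1, which trims tRNA 3′ ends, fell by 0.76 with IgE in WT cells (SE 0.17, limma adjusted p 0.00898). Trmt61a, which methylates adenosine in tRNA, rose by 2.33 ± 0.72 with IgE in WT cells (adjusted p 0.0475). Rpp25, a subunit of the tRNA-trimming ribonuclease P, rose by 1.33 ± 0.40 with IgE (adjusted p 0.0430) and fell by 1.34 with IL-33 (SE 0.40, adjusted p 0.0417). With IL-33 another ribonuclease P subunit gene, Rpp21, fell by 0.43 (SE 0.12, adjusted p 0.0317) and Rpp14 rose by 0.48 ± 0.14 (adjusted p 0.0422). Of 14 accessory charging genes none rose without the block, and 2, 1 and 2 fell in the same order of comparisons. With the block 0, 1 and 2 rose and 3, 4 and 2 fell. Of all genes 14.6%, 13.5% and 15.1% then rose and 17.9%, 18% and 18.7% fell. Dtd1, which removes D-amino acids from tRNA, fell by 0.93 with IgE and by 1.02 with IL-33 in WT cells (SE 0.21 each, limma adjusted p 0.0099 and 0.00527). Sephs1 fell by 0.88 with IgE (SE 0.22, adjusted p 0.0189). With IgE in WT cells the median change was 0.28 for the synthetases, 0.13 for the cytosolic and 0.18 for the mitochondrial translation factors, 0.20 for the tRNA processing genes and -0.11 for the accessory charging genes, against -0.03 for all genes.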

How the data were processed

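18 RNA samples of mouse mast cells were measured on Illumina bead arrays. Per the file headers the authors deposited probe intensities with a detection p-value per probe, and a table of log2 values. The ranks of these values match the intensities on each of the 17 complete arrays (lowest rank correlation 1). The incomplete array was not compared in this way. Which software made the log2 values is not given in the sources used here. The intensities of the array ST2KO IgE replicate 3 cover 10012 of 45281 probes; its levels were placed by the rank of the deposited log2 values on the distribution shared by the 17 complete arrays.

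Intensities were background-corrected (normexp by detection p, offset 16), quantile-normalised and taken to log2 with limma 3.58.1 in R 4.3.3. Probes were named from GEO's platform annotation (34885 with 1 symbol, 18 with several, 10378 not listed). Probes detected at p under 0.05 on 3 or more arrays were kept, 19514 in all, and the brightest stood for its gene, giving 10529 genes. Comparisons were fitted over all 6 groups with lmFit and eBayes with trend, and p-values were Benjamini-Hochberg adjusted over all genes of a comparison, threshold 0.05. With 3 arrays per group, their number limits the precision.

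Residuals of same-numbered arrays correlated at 0.51 to 0.92 in all 18 pairs within a genotype. In the 36 other pairs they correlated at -0.85 to 0.72. Between unstimulated genotypes the 3 same-numbered pairs correlated at 0.55 to 0.73. Every negative value set an array 3 against an array 1 or 2. Arrays 1 and 2 of different groups correlated with each other at 0.48 to 0.72 within a genotype. Pairing by the numbers 1 and 2 is therefore not shown. Because array 3 stood apart, the fit with the number as a block is given beside the results. Synthetases called against unstimulated cells are given array by array, the scaffold genes, Atf4, Asns and Myc always, and other lists by up to 3 genes of smallest adjusted p. The values of Wars on each array were added after they were seen. The members and gene lists were chosen with earlier results of these data known. Promoters were searched with Python 3.11.15 and pandas 2.3.3, and figures drawn with matplotlib 3.10.9.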

Additional observations from a re-analysis of the deposited data

Results flagged for a closer look

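In 2 synthetases the IL-33 response differed between the genotypes by the test of the difference itself, the interaction in limma. For Gars the response in ST2KO cells minus that in WT cells was -0.80 (SE 0.19, adjusted p 0.0368), the WT response being 0.69 and the ST2KO response -0.11. For Vars it was -0.91 (SE 0.23, adjusted p 0.0465), with responses of 0.76 and -0.15. All 3 same-numbered differences were negative for both genes, -1.12, -0.78 and -0.49 for Gars and -1.04, -1.04 and -0.64 for Vars. A second bright Vars probe changed with IL-33 by 0.64 in WT and -0.12 in ST2KO cells. The dim Vars probe, detected on 14 of 17 complete arrays, went the other way, by 0.29 in WT and 0.42 in ST2KO cells. Both calls held in 2 of 12 refits that left out 1 array. Both were lost with median scaling, without the detection filter and when only the groups compared were fitted. The Vars call was also lost with the mean of a gene's probes.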

How the results depend on the processing

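The 18 calls of single synthetases kept their direction in 198 refits under other settings, of which 165 stayed past the threshold, and in 120 refits without 1 array, of which 63 did. The number of synthetases called moved as follows, and the cause was not tested. These counts are to be read beside those of all genes, which moved with the setting too. Counts of all genes are not given for the mean of probes, without the detection filter, with only the groups compared, or without 1 array. With IgE in WT cells 5 became 1 with median scaling, 2 without the detection filter, and 15 both with the replicate block and without the arrays numbered 3, and lay between 1 and 5 without 1 array. With IL-33 in WT cells 4 became 1 with median scaling, 8 with the mean of a gene's probes and 18 with the block and without the arrays numbered 3, and lay between 3 and 8 without 1 array. Between IL-33 and IgE, 1 became 0 with median scaling, 2 with the block and 3 without the arrays numbered 3, and stayed at 1 without 1 array. All genes called there went from 227 higher and 239 lower to 141 and 231 with median scaling. They went to 798 and 869 with the block, and to 1010 and 1189 without the arrays numbered 3. With IgE in ST2KO cells 6 became 2 with median scaling and when only the groups compared were fitted, 14 with the block and 18 without the arrays numbered 3, and lay between 1 and 8 without 1 array. Median scaling there left 370 of all genes called higher and 498 lower. The difference in the IL-33 response went from 2 to 0 with median scaling, without the detection filter and with the groups compared only, to 1 with the mean of probes, 7 with the block and 14 without the arrays numbered 3, and lay between 0 and 1 without 1 array. Between unstimulated genotypes 0 became 1 without the arrays numbered 3. With IL-33 in ST2KO cells and for the difference in the IgE response the count was 0 under each setting run. Signal over background limits Yars, Wars2 and Hars.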
